A study of Mus musculus with 30 samples.

Results

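The bleomycin response of the lung in old Zmpste24 deficient mice was read from 6 arrays, 3 after bleomycin and 3 after saline, of 30 arrays in 10 groups. Members were taken by genotype (Zmpste24 -/-), labelled age (16 weeks), treatment and array set (set 1) as the sample labels give them. All 6 mice lacked Zmpste24, so the saline lungs carry the same constitutive deficiency as the bleomycin lungs. The methods name C57BL/6 for the wild type (WT) mice only. A single dose went in through the oropharynx and the left lung was taken at day 21; the labels and the methods disagree on the dose, which is therefore not printed. For comparison, 3 further pairs of groups were used, each with 3 bleomycin and 3 saline arrays: WT lungs of set 1 (also labelled 16 weeks, although another label calls the same mice young), old WT lungs of set 2 (82 weeks) and young Zmpste24 deficient lungs of set 2 (7 weeks). Expression in whole lung was read on the Mouse Gene 2.0 ST array of Affymetrix, and every level below is a deposited log2 value, on which a difference of 1 is a 2-fold change.

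Bleomycin is an antitumour glycopeptide that breaks DNA. Instilled into mouse airways it first injures the epithelium and draws in inflammatory cells, and collagen-rich scar tissue follows. Zmpste24 is the metalloproteinase that trims prelamin A to mature lamin A, and mice without it accumulate prelamin A at the nuclear envelope and age early. The bleomycin model is commonly followed through matrix genes such as collagens and fibronectin, through macrophages that carry scavenger receptors and matrix metalloproteinases, and through lymphocytes and neutrophils.

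Array medians of the whole series lay between 5.95 and 6.19. Zmpste24 itself lay between 5.69 and 6.56 in the 6 arrays and between 7.93 and 8.68 in the 15 WT arrays, without overlap. The tissue markers were those of lung: Sftpc, the surfactant protein of alveolar type 2 cells, lay between 12.84 and 13.52, Ager, a type 1 cell receptor, between 11.63 and 12.4, and Scgb1a1, the secretoglobin of club cells, between 13.54 and 13.69. Saline replicate 3 stood apart. Its mean correlation with the other arrays was 0.917, against 0.959 to 0.972 for the other 29, and its interquartile range was 2.22, against 2.56 to 2.76. Xist, which coats the silenced X in females, stood there at 9.86 and the Y-linked gene Eif2s3y at 4.75, where the other 5 arrays held 4.21 to 4.68 and 8.20 to 9.09. The labels give no sex. List counts are therefore also given without this array.

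At day 21 after bleomycin the old Zmpste24 deficient lung held less RNA of major histocompatibility complex (MHC) class II genes, B cells, T cells, natural killer (NK) cells and dendritic cells than after saline, and more RNA of neutrophils and of genes that glucocorticoids and fasting induce. Genes of collagen, of other matrix proteins and of profibrotic macrophages mostly did not pass the test, although the mean of the collagen list was lower after bleomycin. With 22180 genes tested in limma and a call at an adjusted p under 0.05, 2350 genes were called (10.6% of those tested), 1623 higher (7.32%) and 727 lower (3.28%). Of these, 180 higher and 117 lower genes changed by more than 1 on the log2 scale. With all 6 arrays, the 3 bleomycin arrays did not overlap the 3 saline arrays for 4726 genes (21.3%), 2819 with bleomycin above (12.7%) and 1907 with bleomycin below (8.6%), and 2183 of them were also called. Without saline replicate 3, 1571 genes were called (7.08%), 676 higher (3.05%) and 895 lower (4.04%), so that lower calls then outnumbered higher ones. Of the 1623 higher genes 611 (37.65%) were called higher again, of the 727 lower genes 478 (65.75%) were called lower again, and 0 genes were called in opposite directions. The count also depended on other arrays: it was 3634 without saline replicate 1, 3746 without saline replicate 2, 1204 without bleomycin replicate 2 and 1185 without bleomycin replicate 3. A fit of these 6 arrays alone, with its own estimate of the spread, called 123 genes. The shares of all genes called in the full fit, 7.32% higher and 3.28% lower, are the background for the list counts below. Without saline replicate 3 they are 3.05% and 4.04%.

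**Figure D1:**
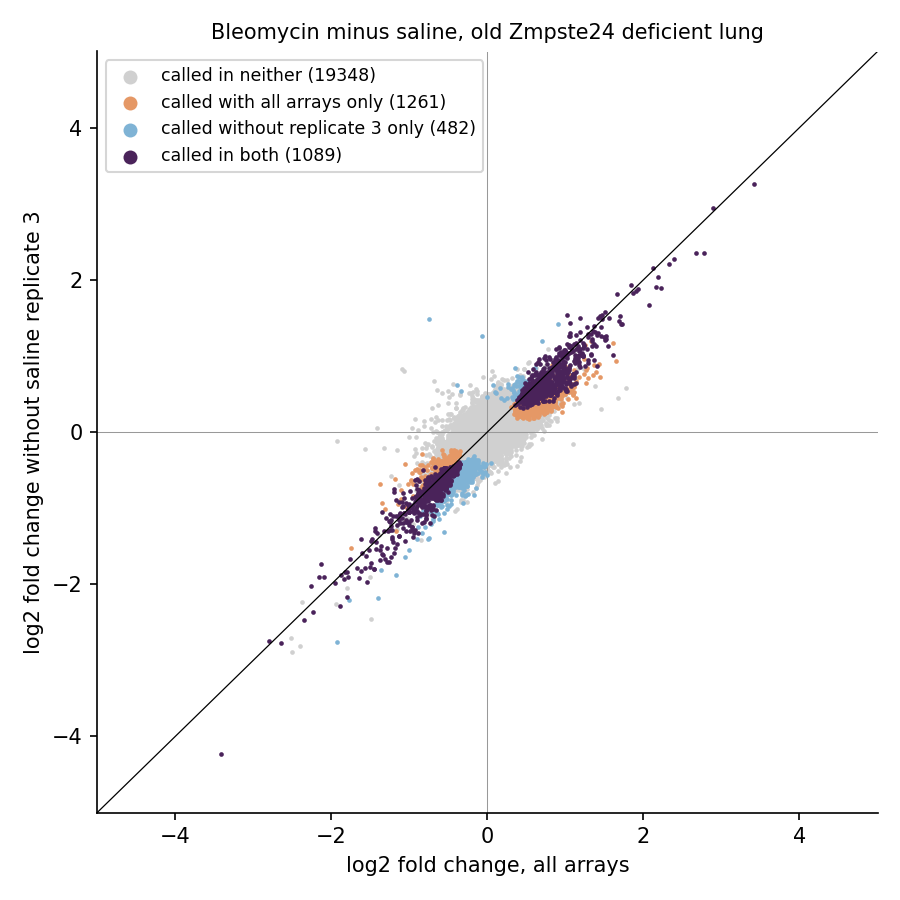
Log2 fold change (bleomycin minus saline) of each of the 22180 genes with all arrays (x axis) and without saline replicate 3 (y axis), coloured by whether limma called the gene; the line marks equal values. The 1089 genes called in both fits lie on the same side of 0 on both axes, while 1261 genes were called with all arrays only and 482 without the array only.

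The shift of calls with saline replicate 3 ran with the level of the genes. Among the 5545 genes with the highest mean level (7.74 to 13.76), 842 were higher and 212 lower with all arrays, and 276 higher and 467 lower without the array. Among the 5545 with the lowest (2.08 to 5.19) the counts were 48 higher and 89 lower, and 61 higher and 25 lower without it. Olfactory receptor genes, which lung uses little, were called higher in 4 and lower in 17 of 1105 cases, and in 7 and 5 cases without the array. The level classes and this family were chosen after the data were seen.

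The 12 highest and 12 lowest fold changes among called genes without overlap came from few kinds of genes. Stfa2l1, a stefin-type inhibitor of cysteine proteases, stood at 7.81, 7.70 and 7.28 after saline and at 11.04, 10.96 and 11.04 after bleomycin. Its log2 fold change of 3.42 (SE 0.30, adjusted p = 3.00e-08) was the largest of the 12 rises, and the related stefin gene Stfa1, like it on chromosome 16, rose by 2.90 (SE 0.30). Retnlg, a resistin-like peptide of neutrophils, S100a8, a calcium-binding protein of neutrophils, and Il1r2, the decoy receptor for interleukin 1, rose by 2.78, 2.19 and 2.33. Sult1d1, a sulfotransferase, stood at 7.26, 7.54 and 6.44 after saline and between 9.71 and 9.80 after bleomycin, a rise of 2.67 (SE 0.22, adjusted p = 3.00e-08). Tat, the liver enzyme tyrosine aminotransferase and a classical glucocorticoid target, rose by 2.40, Akr1c14, a hydroxysteroid dehydrogenase, by 2.23, and Rgs5, a pericyte regulator of G protein signalling, by 2.16. The last of the 12 were Doc2b, a calcium sensor of vesicle release (2.13), Bpifa1, an airway secretory protein (2.08), and Hamp, the iron hormone hepcidin (1.93). All 12 were called again without saline replicate 3, with log2 fold changes between 1.67 for Bpifa1 and 3.26 for Stfa2l1.

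Among the 12 lowest, 5 are immunoglobulin genes, 3 encode MHC class II proteins or their partner, and the others are Jchain, Cxcl9, Gbp8 and the T cell receptor segment Trav9d-3. Igkv6-23, a kappa light chain segment, stood at 8.65, 8.47 and 6.12 after saline and at 4.90, 3.95 and 4.15 after bleomycin. It had the lowest fold change, -3.41, with a wide standard error of 0.99 (adjusted p = 0.0269). Trav9d-3 fell from 9.46, 9.59 and 10.28 to 7.49, 7.63 and 7.75, a fold change of -2.15 with a narrow standard error (0.21, adjusted p = 1.50e-07). Near-identical segments exist for these receptor genes, so a probe set may bind RNA of several, and the values are uncertain for any 1 segment.

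**Figure D2:**
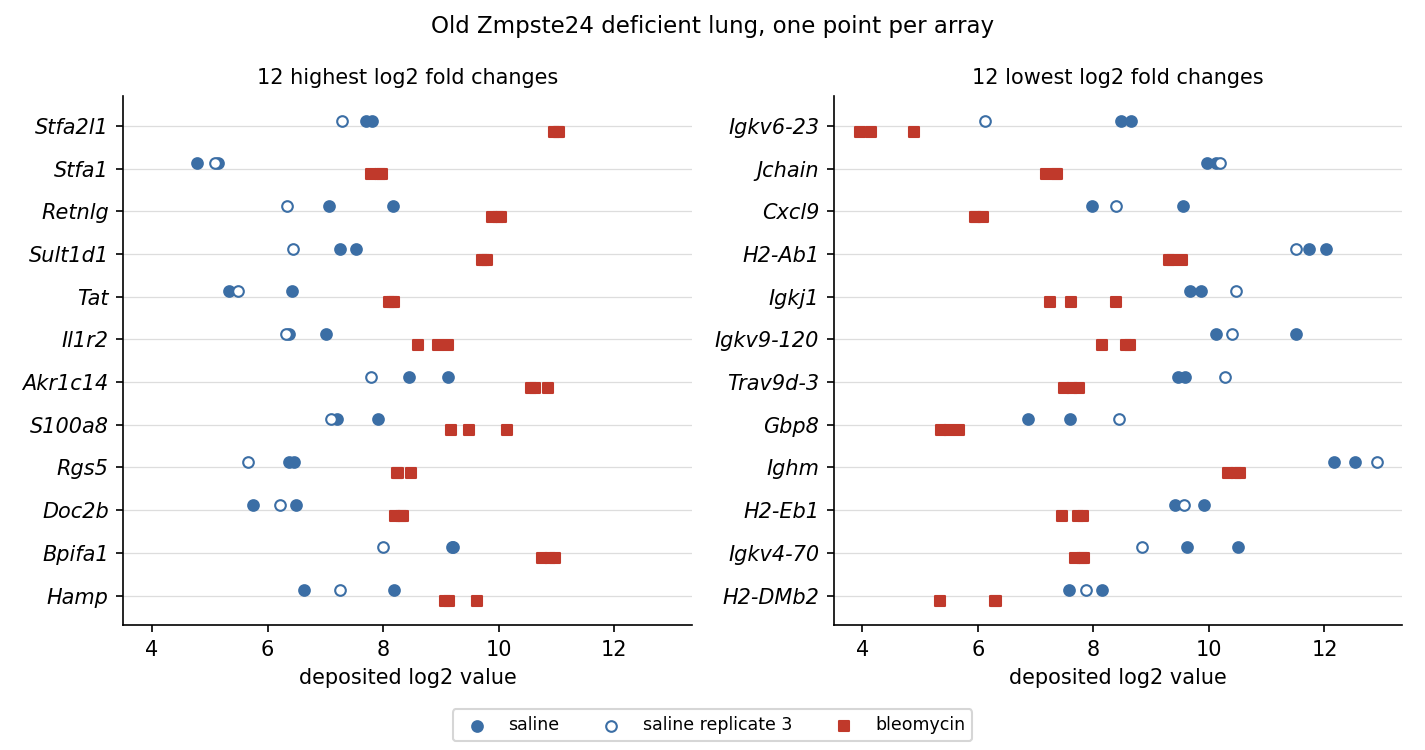
Deposited log2 values (x axis) of the 12 genes with the highest (left) and the 12 with the lowest (right) log2 fold changes among called genes whose arrays do not overlap, 1 point per array (circles, saline, with replicate 3 open; squares, bleomycin). Saline replicate 3 is the lowest saline value for Stfa2l1, Retnlg, Sult1d1, Il1r2, Akr1c14, S100a8, Rgs5 and Bpifa1 on the left. It is the highest for Jchain, Igkj1, Trav9d-3, Gbp8 and Ighm on the right.

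Genes that present antigen to T cells formed the list with the largest share of lower calls. MHC class II molecules carry peptides on the surface of dendritic cells, B cells and macrophages, and Ciita, the class II transactivator, switches their genes on. Of 17 measured genes of antigen presentation, 15 fell and 0 rose, beside 3.28% of all genes called lower, and 13 fell without saline replicate 3. The median log2 fold change was -0.83 (-0.78 without the array), beside -0.01 over all genes tested. H2-Ab1, the class II beta chain of the A molecule, stood at 12.02, 11.73 and 11.51 after saline and at 9.37, 9.32 and 9.54 after bleomycin. This fall of 2.35 (fold change -2.35, SE 0.19, adjusted p = 1.97e-08) left the groups without overlap.
H2-Eb1, the beta chain of the E molecule, stood at 9.91, 9.41 and 9.56 after saline and at 7.74, 7.46 and 7.81 after bleomycin (fold change -1.96, SE 0.18, adjusted p = 1.50e-07). Ciita stood at 8.001, 8.28 and 8.78 and then at 6.98, 6.59 and 6.64 (-1.62, SE 0.17, adjusted p = 7.98e-07). The groups did not overlap for either gene. H2-Aa, the alpha chain of the A molecule, and H2-DMa, a chain of the peptide exchanger, fell by 1.49 and 1.24, and H2-DMb2, another chain of the exchanger that is not on the list, fell by 1.88. The class I side of the list fell less. H2-K1, a class I heavy chain, had a fold change of -0.73, Tap1, a peptide transporter, -0.83, Psmb9, a subunit of the immunoproteasome, -0.90, and B2m, the light chain of class I, -0.48, each a call. Nlrc5, the class I transactivator, fell by 0.99. H2-DMb1 and H2-Q4 (-0.71 and -0.64) were called with all arrays and not without saline replicate 3. The summed picture per array was narrow: the list mean lay at 8.84 to 8.90 in the saline arrays and at 7.79 to 7.95 in the bleomycin arrays, below every one of the other 24 arrays of the series (8.06 to 9.14). In whole lung RNA, fewer cells of a type and less RNA per cell cannot be told apart.

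Class II promoters are known for a conserved X box and Y box that assemble the complex Ciita acts on, so the start regions of H2-Eb1 and H2-Aa are shown, each 250 bases before to 50 after the RefSeq start of transcription. Both genes lie on chromosome 17 (GRCm38.p6), H2-Eb1 on the plus strand at chr17:34305617-34305916 and H2-Aa on the minus strand at chr17:34287774-34288073. Capitals mark the Y box letters CTGATTGG and, in H2-Eb1, the X box letters GCAAC and GATG with 1 base of any kind between them.
H2-Eb1: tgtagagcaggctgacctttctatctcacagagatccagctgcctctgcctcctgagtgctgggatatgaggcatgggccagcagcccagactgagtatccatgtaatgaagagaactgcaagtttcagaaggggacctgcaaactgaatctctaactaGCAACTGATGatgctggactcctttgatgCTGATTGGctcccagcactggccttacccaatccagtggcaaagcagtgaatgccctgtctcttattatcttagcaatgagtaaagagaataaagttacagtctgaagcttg
H2-Aa: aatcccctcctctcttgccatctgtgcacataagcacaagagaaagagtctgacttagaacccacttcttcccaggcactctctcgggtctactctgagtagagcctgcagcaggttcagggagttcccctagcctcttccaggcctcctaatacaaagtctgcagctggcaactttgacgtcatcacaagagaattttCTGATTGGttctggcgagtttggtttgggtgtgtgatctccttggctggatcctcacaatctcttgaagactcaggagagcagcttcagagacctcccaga
The Y box letters began 62 bases before the start in H2-Eb1 and 51 bases before it in H2-Aa, and the X box letters 91 bases before it in H2-Eb1. Searched on both strands, the Y box letters were in the windows of 4 of 8 class II genes with a RefSeq window (H2-Aa, H2-Eb1, H2-Eb2 and H2-Oa) and of 5 of 12 antigen presentation genes, beside 4.7% of 27025 genes. The X box letters were in 2 of the 8 (H2-Eb1 and H2-Eb2), beside 0.215% of genes. The set of 8 class II genes was drawn up after the data were seen, and the 4 with the Y box letters had fold changes from -1.04 (H2-Eb2) to -1.96. A match describes the letters and does not show that a factor was bound in these lungs.

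Lymphocyte genes were lower as well. Of 12 measured genes of B and plasma cells, 9 fell and 0 rose (7 fell without saline replicate 3), with a median of -0.94. Jchain, which links IgA and IgM into polymers in plasma cells, stood at 10.12, 9.97 and 10.19 after saline and at 7.36, 7.18 and 7.36 after bleomycin. The change of -2.79 (SE 0.57, adjusted p = 0.00213) was far larger than the spread of either group. The standard error pools the spread of this gene over all 10 groups. Cd79a, a signalling chain of the B cell receptor, stood at 8.54, 9.57 and 8.72 and then at 7.39, 6.84 and 7.57 (-1.67, SE 0.33, adjusted p = 0.00164). Ms4a1, the B cell surface protein CD20, Cd79b, the partner of Cd79a, and Pou2af1, a B cell coactivator, fell by 1.43, 1.14 and 1.12. Ighm, the heavy chain of IgM, stood at 12.17, 12.53 and 12.90 after saline and at 10.54, 10.33 and 10.47 after bleomycin (-2.09, SE 0.42, adjusted p = 0.00184). Of all 21 immunoglobulin genes tested, a family counted after the data were seen, 8 fell and 0 rose, and 10 fell without saline replicate 3.

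The T cell and NK list had 11 of 19 measured genes lower and 0 higher, and again 11 lower without saline replicate 3, of which 10 were the same genes. Cd3g, a chain of the T cell receptor complex, stood at 8.80, 8.41 and 7.78 after saline and at 6.79, 7.10 and 7.07 after bleomycin (-1.34, SE 0.23, adjusted p = 0.000454). Nkg7, a granule protein of NK and cytotoxic T cells, was tighter, at 7.80, 7.63 and 7.66 and then at 6.93, 6.66 and 6.55 (-0.98, SE 0.15, adjusted p = 9.27e-05). Cd3e fell by 1.36 and Foxp3, the transcription factor of regulatory T cells, by 1.00. Genes of helper and of cytotoxic T cells were both lower. Cd4 had a fold change of -1.55, Cd8a of -0.97 and Cd8b1 of -0.96, all calls, while Gzma, a granzyme, was at -0.89 and passed only without saline replicate 3. The list mean lay at 6.89 to 7.06 in the saline arrays and at 6.16 to 6.27 in the bleomycin arrays, where the other 24 arrays ranged from 6.26 to 7.05.

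**Figure D3:**
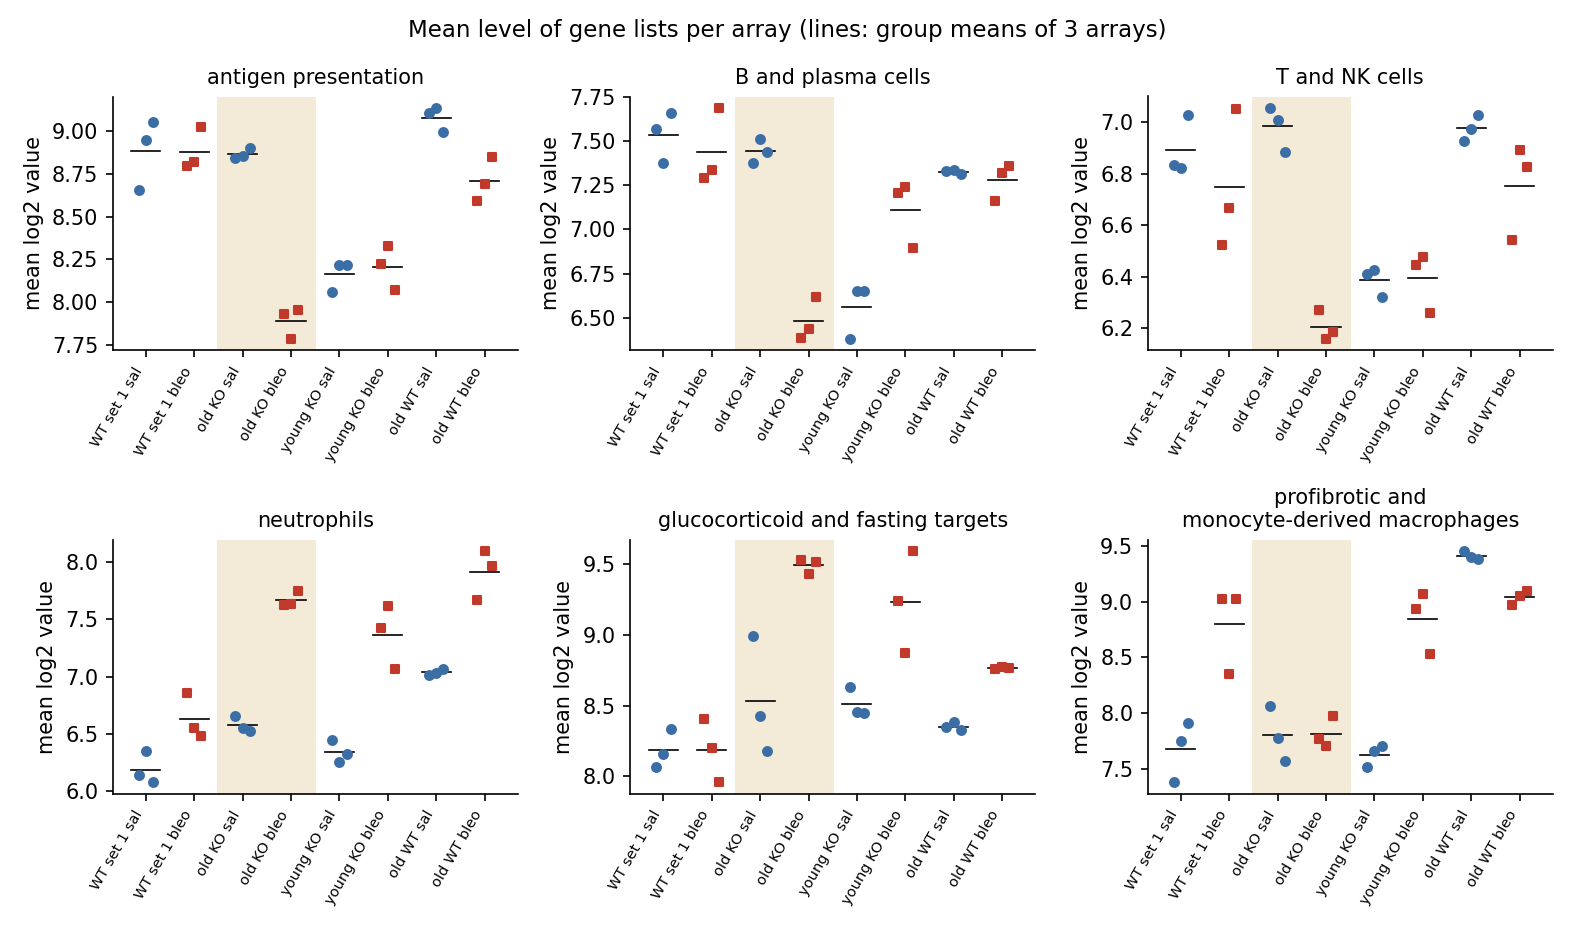
Mean log2 value per array (y axis) of 6 gene lists in the 8 groups with a bleomycin partner (sal, saline; bleo, bleomycin; KO, Zmpste24 deficient), with lines at group means and the old Zmpste24 deficient groups shaded. In the shaded groups antigen presentation is at 8.84 to 8.90 after saline and 7.79 to 7.95 after bleomycin, and the macrophage list is at 7.57 to 8.06 and 7.71 to 7.98.

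Dendritic cells collect antigen and carry it to lymph nodes, and of 11 measured genes of theirs 7 fell and 0 rose (6 without saline replicate 3). Itgae, the integrin CD103, stood at 6.45, 6.51 and 6.44 after saline and at 5.78, 5.64 and 5.60 after bleomycin (-0.79, SE 0.13, adjusted p = 0.000356). Siglech, a marker of plasmacytoid dendritic cells, fell by 0.77 and Fscn1, an actin bundler of migrating dendritic cells, by 0.72. Ccl22, a chemokine that mature dendritic cells release, stood at 8.20, 7.23 and 6.63 and then at 5.66, 5.37 and 5.62 (-1.80, SE 0.26, adjusted p = 5.75e-05). Among 30 chemokines and receptors, 9 fell and 2 rose, and 9 fell and 1 rose without saline replicate 3. The lower ones attract or mark lymphocytes and monocytes. Cxcl9, which draws T cells through Cxcr3, stood at 9.55, 7.98 and 8.40 after saline and at 6.08, 5.97 and 5.94 after bleomycin, a fold change of -2.64 (SE 0.38, adjusted p = 7.39e-05). Ccl5, made by cytotoxic T cells and NK cells, fell by 1.82, Cxcl10 by 1.57 and the monocyte receptor Ccr2 by 0.75. Ccl17 ran from 6.21 to 9.87 across the saline arrays, overlapped the bleomycin arrays and passed only without saline replicate 3. The 2 that rose were Cxcr2, the chemokine receptor of neutrophils (1.34), and Ccr1 (1.36, not called without saline replicate 3).

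Of 25 measured interferon-induced genes, 11 fell and 0 rose (8 without saline replicate 3), and 7 of the 11 are guanylate binding proteins or the related GTPase Igtp, which interferon gamma induces in mice. Gbp8 stood at 7.60, 6.87 and 8.44 after saline and at 5.49, 5.67 and 5.36 after bleomycin (-2.13, SE 0.29, adjusted p = 3.82e-05). Saline replicate 3 was the highest array for Gbp8, and without it the fold change was -1.73. Oas2, an antiviral nucleotide synthetase, Zbp1, a nucleic acid sensor, and Gbp3 fell by 1.21, 1.18 and 0.88. Genes that did not pass were also of both kinds: Ifit1, Ifit3 and Isg15, genes of the type I interferon response, had fold changes of -0.10, 0.04 and 0.12, and the GTPase genes Gbp7 and Irgm1 had -0.55 and -0.14. Cfb, a complement factor that interferon gamma also induces, fell by 1.21, and Vcam1, the endothelial adhesion molecule for lymphocytes, stood at 8.71, 8.30 and 7.81 and then at 7.07, 7.12 and 7.23 (-1.13, SE 0.26, adjusted p = 0.00515). Nfkb2, a subunit of NF-kappaB, fell by 0.66.

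Cell cycle genes were lower too, with 6 of 25 measured falling and 0 rising, and 6 falling without saline replicate 3. Of all genes 3.28% fell, and 4.04% without the array. Top2a, the topoisomerase of dividing cells, stood at 6.72, 6.36 and 5.86 after saline and at 5.09, 4.93 and 5.05 after bleomycin (-1.29, SE 0.31, adjusted p = 0.00748). Mki67, the proliferation marker Ki-67, stood at 8.18, 7.50 and 6.79 and then at 6.67, 6.22 and 6.04 (-1.18, SE 0.30). Bub1 and Bub1b, kinases of the spindle checkpoint, fell by 1.13 and 0.68. All 3 saline arrays were above the bleomycin arrays for these 4 genes, and saline replicate 1 was the highest. The list median was -0.56, and the remaining 19 genes did not pass.

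Neutrophil genes were the counterpart on the higher side. Neutrophils are short-lived granulocytes that carry S100a8 and S100a9 in the cytosol and proteases in granules. Of 14 measured genes, 10 rose and 0 fell, beside 7.32% of all genes called higher, and 9 rose without saline replicate 3. The median was 1.10 (1.11 without the array). S100a8 stood at 7.91, 7.21 and 7.10 after saline and at 9.48, 9.17 and 10.14 after bleomycin (2.19, SE 0.35, adjusted p = 0.00026). S100a9, its partner, stood at 7.16, 6.66 and 7.38 and then at 8.53, 8.84 and 8.83 (1.66, SE 0.27, adjusted p = 0.000277). The groups were apart for both genes. Cxcr2 rose by 1.34, Mmp8, the neutrophil collagenase, by 1.72, Mmp9, the gelatinase of granules, by 1.13 and Ngp, a granule protein, by 1.28. The interleukin 1 genes moved with them: Il1b, the cytokine itself, stood at 7.88, 8.89 and 8.25 and then at 10.07, 10.32 and 10.33 (1.90, SE 0.24, adjusted p = 1.07e-05), Il1r2 rose by 2.33, and Il1rn, the receptor antagonist, fell by 0.61 with all arrays only. The list mean of the neutrophil genes lay at 6.53 to 6.66 in the saline arrays and at 7.63 to 7.75 in the bleomycin arrays.

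Glucocorticoids act through a nuclear receptor that raises a set of genes in many tissues, and fasting raises an overlapping set. Of 20 measured genes of this kind, 14 rose and 0 fell, and 10 rose without saline replicate 3, with a median of 0.99 (0.70 without the array). Of all genes 7.32% rose, and 3.05% without the array. Tat stood at 6.43, 5.33 and 5.49 after saline and at 8.20, 8.15 and 8.10 after bleomycin (2.40, SE 0.31, adjusted p = 1.81e-05). Mt1, a metal-binding metallothionein, stood at 9.31, 9.12 and 8.71 and then at 10.27, 9.96 and 10.23 (1.11, SE 0.16, adjusted p = 9.27e-05). Fkbp5, a co-chaperone of the glucocorticoid receptor, ran from 7.36 to 8.93 across the saline arrays and from 9.43 to 9.57 across the bleomycin arrays (1.45, SE 0.31). Ddit4, an inhibitor of growth signalling, Cebpd, a transcription factor of the acute phase, and Hif3a rose by 1.33, 1.14 and 1.07. Pdk4, Klf9, Errfi1 and Cdkn1a were called with all arrays and not without saline replicate 3. The list mean spread widely after saline, at 8.99, 8.42 and 8.18, and narrowly after bleomycin, at 9.53, 9.43 and 9.52, so saline replicate 1 lay nearer to the bleomycin arrays than saline replicate 3 did.

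The metallothionein promoter is shown for a sequence of the kind that the glucocorticoid receptor binds as a dimer. Capitals mark a match to GNACA and TGTNC with 3 bases between them (N, any base) in the Mt1 window, chr8:94178839-94179138 on the plus strand of GRCm38.p6. The match began 94 bases before the start.
Mt1: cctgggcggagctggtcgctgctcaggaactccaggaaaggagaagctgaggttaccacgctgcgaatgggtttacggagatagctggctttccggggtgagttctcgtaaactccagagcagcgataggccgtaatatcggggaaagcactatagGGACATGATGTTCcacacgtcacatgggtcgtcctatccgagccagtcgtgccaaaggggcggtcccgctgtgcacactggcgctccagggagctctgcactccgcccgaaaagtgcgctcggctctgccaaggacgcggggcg
Of 17 list genes with a RefSeq window, 3 held the pattern (Mt1, Sgk1 and Fam107a), beside 0.537% of genes, and these 3 rose by 1.11, 0.84 and 1.20. The other rising genes, Tat and Fkbp5 among them, had no match in their windows.

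p53 halts the cycle and starts repair after DNA breaks, and of 25 measured genes of p53 targets and senescence 11 rose and 0 fell, with 6 rising without saline replicate 3. Trp53inp1, a stress-induced p53 partner, stood at 9.66, 9.05 and 8.998 after saline and at 10.65, 10.63 and 10.69 after bleomycin (1.42, SE 0.16, adjusted p = 2.35e-06). Sesn1, a sestrin that curbs growth signalling, stood at 8.69, 8.03 and 7.83 and then at 9.46, 9.46 and 9.26 (1.21, SE 0.18, adjusted p = 9.27e-05). Ccng1, a cyclin that p53 induces, rose by 1.41 (0.86 without saline replicate 3) and Mdm2, the ligase that degrades p53, by 1.01 (0.54 without it). Cdkn1a, the inhibitor p21, stood at 10.57, 10.10 and 8.61 after saline and at 11.11, 11.02 and 11.01 after bleomycin. Its fold change of 1.29 (SE 0.39, adjusted p = 0.0327) became 0.71, no call, without saline replicate 3, the lowest of the 6 arrays.
Antioxidant genes gave 7 rising and 0 falling of 25 measured, and 4 rising without the array, beside 7.32% and 3.05% of all genes. Nqo1, a quinone reductase and a standard target of the oxidant sensor Nrf2, stood at 6.25, 6.16 and 5.90 and then at 7.33, 7.21 and 7.47 (1.24, SE 0.15, adjusted p = 8.33e-06). Txnrd1, thioredoxin reductase, Gclc, the enzyme that starts glutathione synthesis, and Gsta4, a glutathione transferase, rose by 0.76, 0.85 and 0.77. Nox4, an NADPH oxidase of fibroblasts and vessels, stood at 9.82, 9.61 and 8.71 and then at 10.26, 10.35 and 10.37, and its rise of 0.94 became 0.61, no call, without saline replicate 3. Among 18 measured genes of xenobiotic metabolism 5 rose and 0 fell, 2 of them without the array: Fmo2, the main flavin monooxygenase of lung (0.95), and Fmo1 (0.65).

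Circadian clock genes oscillate with the time of day, which the labels do not give for these mice. Of 17 measured, 6 rose and 0 fell, and 3 rose without saline replicate 3, beside 7.32% and 3.05% of all genes. Ciart, a repressor of the clock, stood at 6.80, 7.29 and 7.22 after saline and at 8.01, 7.84 and 7.82 after bleomycin (0.78, SE 0.20, adjusted p = 0.0112). Per3, a period protein, stood at 7.17, 7.52 and 7.94 and then at 8.54, 8.65 and 8.62 (1.06, SE 0.28, adjusted p = 0.0138), and the cryptochromes Cry1 and Cry2 rose by 0.48 and 0.84. Cry2, Nr1d2 and Hlf were not called without the array. Ciart is shown because its window, chr3:95882179-95882478 on the minus strand of GRCm38.p6, holds the E box letters CACGTG, which Clock and Bmal1 bind, 3 times (in capitals).
Ciart: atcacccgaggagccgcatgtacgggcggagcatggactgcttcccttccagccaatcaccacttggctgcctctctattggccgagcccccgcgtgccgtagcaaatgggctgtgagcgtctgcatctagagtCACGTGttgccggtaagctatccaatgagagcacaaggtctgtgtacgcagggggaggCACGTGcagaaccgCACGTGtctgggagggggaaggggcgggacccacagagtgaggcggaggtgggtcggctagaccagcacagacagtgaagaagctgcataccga
The letters were in the windows of 5 of 16 clock genes, beside 8.09% of genes. Of these 5, Ciart and Cry1 rose, and Per1, Tef and Bhlhe41 had fold changes of 0.70, 0.42 and 0.67 that did not pass. Immediate-early genes, which answer handling and injury within minutes, rose in 5 of 25 cases (2 without saline replicate 3). Of all genes 7.32% rose, and 3.05% without the array. Fos led the list, at 7.31, 7.16 and 7.68 after saline and 8.35, 8.41 and 8.79 after bleomycin (1.13, SE 0.17, adjusted p = 9.27e-05).

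**Figure D4:**
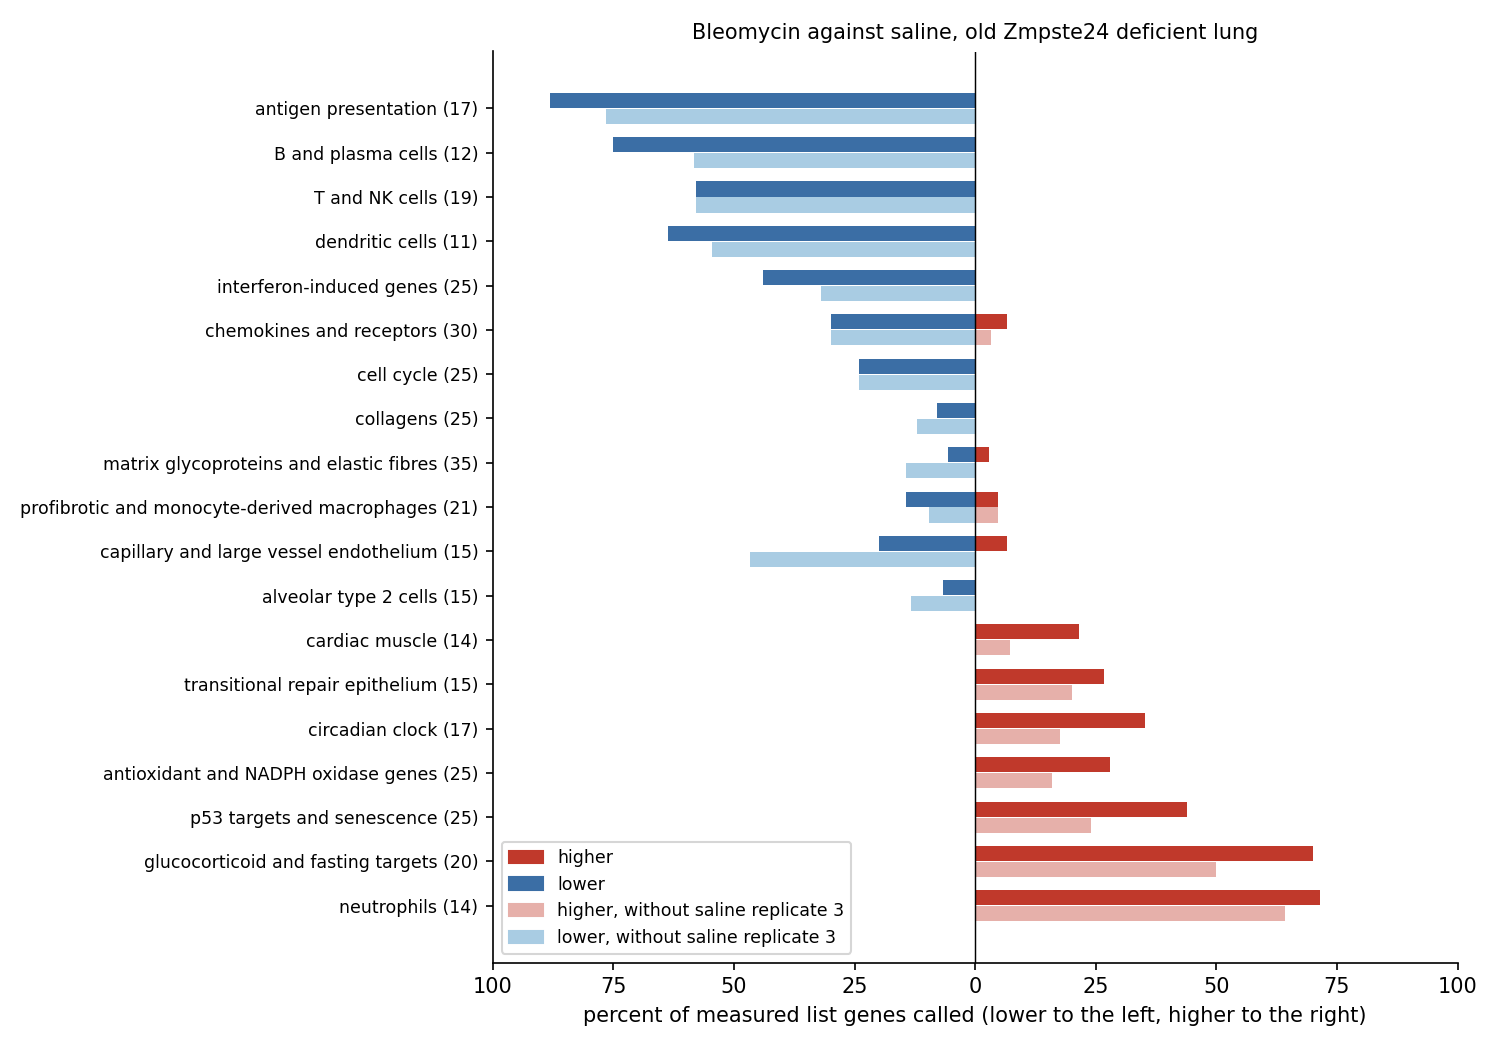
Share of the measured genes of 19 lists (x axis, percent; number measured in brackets) called higher (right) or lower (left) after bleomycin in old Zmpste24 deficient lung, with all arrays (dark bars) and without saline replicate 3 (pale bars). Antigen presentation has 15 of 17 genes lower, and neutrophils have 10 of 14 higher.

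Scar-forming genes showed little rise. Of 25 measured collagen genes 0 rose and 2 fell (3 fell without saline replicate 3). The list mean was lower, at 7.07 to 7.21 in the saline arrays and 6.73 to 6.83 in the bleomycin arrays. The bleomycin arrays lay below each of the other 24 arrays of the series (7.02 to 8.06). Col3a1, the chain of type III collagen, stood at 8.42, 8.39 and 7.95 after saline and at 7.17, 7.31 and 7.17 after bleomycin (-1.03, SE 0.28, adjusted p = 0.019), and Col6a3, a chain of type VI collagen, fell by 1.17. Col1a1, a chain of type I collagen, stood at 8.62, 9.25 and 8.73 and then at 7.85, 7.61 and 7.93. The arrays did not overlap, and the fold change of -1.07 (SE 0.38, adjusted p = 0.0692) did not pass. Among 35 matrix glycoproteins and elastic fibre genes 1 rose and 2 fell, and without saline replicate 3 0 rose and 5 fell. Mfap4, a microfibril protein, stood at 9.76, 10.37 and 8.73 after saline and at 8.44, 8.35 and 8.30 after bleomycin (-1.26, SE 0.30), and Igfbp3 rose by 1.00 with all arrays only. Fn1, fibronectin, ran from 9.68 to 11.26 after saline and from 9.94 to 10.09 after bleomycin, and Tnc, tenascin C, from 5.80 to 6.38 and from 5.70 to 5.99. Neither passed (-0.40 and -0.23). Of 35 genes of TGF-beta, BMP and WNT signalling, 3 rose and 2 fell, and without the array 0 rose and 4 fell. Tgfb1, the ligand that drives fibrosis, stood at 9.21, 9.65 and 8.54 and then at 8.41, 8.54 and 8.28 (-0.72, SE 0.19, adjusted p = 0.0154), and Smad7, the inhibitor of the pathway, fell by 0.52.
Proteoglycans went both ways. Dcn, decorin, which binds TGF-beta and collagen, stood at 10.34, 9.96 and 7.99 after saline and at 10.85, 10.98 and 10.80 after bleomycin. Its rise of 1.45 (SE 0.38, adjusted p = 0.0159) became 0.73, no call, without saline replicate 3. Prelp, another small leucine-rich proteoglycan, fell by 1.01. Of 17 measured genes of collagen processing and crosslinking, 3 rose and 1 fell, and 1 rose and 3 fell without the array. Bmp1 rose in both fits (0.56, and 0.43 without the array). Of 28 matrix metalloproteinases, related proteases and inhibitors, 5 rose and 0 fell (3 rose and 1 fell without the array), namely the neutrophil enzymes Mmp8 and Mmp9, Adam8 and the inhibitors Timp3 and Timp4. Timp4 stood at 5.53, 5.63 and 5.42 and then at 7.00, 6.92 and 7.32 (1.56, SE 0.18, adjusted p = 4.83e-06). Timp1 and Mmp12 did not pass (-0.63 and -0.60).

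Macrophages that arrive from blood and take up debris are a hallmark of bleomycin injury. Of 21 measured genes of profibrotic and monocyte-derived macrophages, 1 rose and 3 fell in the old Zmpste24 deficient lung (1 and 2 without saline replicate 3), and the median was -0.01. Gpnmb, a glycoprotein of lipid-laden macrophages, was the exception, at 7.77, 8.23 and 7.54 after saline and 9.01, 8.65 and 9.26 after bleomycin (1.13, SE 0.25, adjusted p = 0.00447). Ccr2, a receptor of monocytes, and Ms4a7 fell by 0.75 and 0.79, and Cx3cr1, another monocyte receptor, by 0.72 with all arrays only. The list mean lay at 7.57 to 8.06 after saline and at 7.71 to 7.98 after bleomycin, so the groups overlapped.

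A list of 23 measured genes was taken from those discussed by the study, which picked them from these samples, so it is no independent evidence of a direction. There were 6 higher and 2 lower calls among them, and 4 and 2 without saline replicate 3. Peg3, an imprinted zinc finger gene, stood at 7.58, 7.79 and 7.76 after saline and at 9.07, 9.17 and 9.004 after bleomycin (1.37, SE 0.15, adjusted p = 1.39e-06). Mmp8, Hif3a and Klf15 also rose (1.72, 1.07 and 0.92), as did Nox4 and Dcn with all arrays only, and Col3a1 and Tgfb1 fell. The 15 others did not pass, among them Zmpste24 itself (-0.29) and Nr4a1, a nuclear receptor that ran from 7.83 to 11.10 across the saline arrays. Spp1 was not analysed here.

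MicroRNA genes are read on this array through their primary transcript or hairpin, so the values do not give the mature strands. MicroRNAs pair with target RNAs through a seed, bases 2 to 8. Of 6 measured microRNA genes on a list of the same origin, 3 rose and 0 fell, and 2 rose without saline replicate 3. Mir23a stood at 6.55, 7.30 and 7.65 after saline and at 8.37, 7.995 and 8.32 after bleomycin (1.06, SE 0.27, adjusted p = 0.0108). Mir27a, its neighbour on chromosome 8, stood at 7.23, 7.78 and 8.08 and then at 8.59, 8.20 and 8.58 (0.76, SE 0.20, adjusted p = 0.0169). Both are cut from 1 transcript, so the pair is not 2 independent observations. Mir491 rose by 0.81 with all arrays only. Mir145a had a fold change of 0.83 (SE 0.33, adjusted p = 0.11), with overlapping arrays, and did not pass. Mir29a and Mir29b-1 had fold changes of 0.48 and 0.53 and did not pass. Except for Mir145a, sequences of these genes in RefSeq (GRCm38.p6) are given with the seed in capitals, to show which of them share one.
mmu-miR-23a-3p: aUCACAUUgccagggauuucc
mmu-miR-27a-3p: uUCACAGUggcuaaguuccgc
mmu-miR-29a-3p: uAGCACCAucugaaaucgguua
mmu-miR-29b-3p: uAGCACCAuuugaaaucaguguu
mmu-miR-491-5p: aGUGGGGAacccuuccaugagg
The strands of Mir23a (chr8:84208563-84208583, plus strand) and Mir27a (chr8:84208727-84208747, plus strand) have different seeds, while those of Mir29a (chr6:31062673-31062694, minus strand) and Mir29b-1 (chr6:31063025-31063047, minus strand) share AGCACCA. Over all 483 microRNA genes tested, a family counted after the data were seen, 15 rose and 8 fell, and 10 and 2 without saline replicate 3. Of all genes 7.32% rose and 3.28% fell, and 3.05% and 4.04% without the array.

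The alveolar epithelium had few calls. Of 15 type 2 cell genes 0 rose and 1 fell (2 fell without saline replicate 3), and of 14 type 1 cell genes 1 rose, 0 without the array. Transitional cells, which appear while the alveolar lining is rebuilt, gave 4 rising of 15, 3 without the array, among them Cldn4, a tight junction protein, which stood at 6.07, 6.39 and 6.87 and then at 7.00, 7.21 and 7.16 (0.68). Bpifa1 and the secretoglobins Scgb3a1 and Scgb3a2 rose among 12 club and goblet cell genes, and Muc5b, the main mucin of airways, fell by 1.04, while only Bpifa1 was called without the array. Endothelial genes depended on saline replicate 3: 1 rose and 3 fell of 15 with it, and 0 rose and 7 fell without it, beside 4.04% of all genes called lower then. Apln, a peptide of sprouting vessels, stood at 6.86, 7.41 and 6.07 and then at 5.33, 5.40 and 5.28 (-1.45, SE 0.25, adjusted p = 0.000487), and Kdr, the main receptor for VEGF, fell by 0.65. Cardiac muscle genes, which in mouse lung mark the sleeves of pulmonary veins, rose in 3 of 14 cases, 1 without the array, and their list mean lay at 6.66 to 7.25 after saline and at 7.53 to 7.70 after bleomycin. Skeletal muscle (15 genes) and basal and squamous epithelium (15 genes) had 0 calls, with and without the array. Rgs5 was the gene of 10 pericyte genes that rose, and Notch3 fell by 0.84.

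Single genes stood out in lists with few calls. Of 18 coagulation genes 2 rose and 2 fell, with and without saline replicate 3. F3, tissue factor, which starts clotting, stood at 8.95, 8.29 and 7.60 after saline and at 9.59, 9.57 and 9.54 after bleomycin (1.29, SE 0.21, adjusted p = 0.000298), and Pf4, a platelet chemokine, rose by 0.78. Thbd, the endothelial anticoagulant thrombomodulin, stood at 10.60, 10.46 and 9.14 and then at 9.28, 9.40 and 9.33. It fell by 0.73 with all arrays and by 1.20 without saline replicate 3, whose value lay below the bleomycin arrays. Lpl, lipoprotein lipase, rose by 1.02 among 18 lipid genes, Bnip3, a mitophagy receptor, by 1.22 among 17 genes of hypoxia and glycolysis, and Pnpla2, the lipase that opens fat stores and is induced by fasting, by 0.98 among 13 fat genes, each with no overlap and each also without the array. Itgax, the integrin CD11c of alveolar macrophages and dendritic cells, stood at 8.24, 8.21 and 7.28 and then at 6.67, 6.63 and 6.98 (-1.16, SE 0.25, adjusted p = 0.00415). Tcf21, a transcription factor of lung fibroblasts, fell by 0.72 and Hc, the complement component C5, by 0.95. Lox, which crosslinks collagen, stood at 9.12, 8.64 and 7.54 and then at 9.93, 10.17 and 10.04, a rise of 1.61 with all arrays that became 1.17, no call, without saline replicate 3. Among 14 genes of the nuclear lamina and prelamin processing, Icmt, the methyltransferase of prelamin processing, was the 1 call (-0.34), lost without the array. Of 63 ribosomal protein genes, a family counted after the data were seen, 6 rose and 0 fell, and 4 rose without the array. Of all genes 7.32% rose, and 3.05% without the array. Of the probe sets that name no gene or several, 2.97% were called.

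The response was next set against that of the other groups, which addresses whether old Zmpste24 deficient lungs answer bleomycin differently. Each response was taken within its own array set, and the old Zmpste24 deficient arrays enter all 3 differences. The WT lungs of set 1 share the array set, but a label calls these mice young. Age may therefore differ along with genotype in that comparison, and the parts of age and genotype cannot be told apart. Alone, bleomycin gave 160 calls in WT lungs of set 1 (0.721%; 0.509% higher, 0.212% lower), 223 in old WT lungs (1.01%; 0.5% higher, 0.505% lower) and 1049 in young Zmpste24 deficient lungs (4.73%; 2.51% higher, 2.22% lower). The difference from WT lungs of set 1, the same array set, was called for 969 genes (4.37%), 581 higher (2.62%) and 388 lower (1.75%) in the old Zmpste24 deficient response. Without saline replicate 3 these were 470 higher and 733 lower. The count rose to 1466 and 1588 without old Zmpste24 deficient saline replicates 1 and 2. It was 626, 567 and 550 without bleomycin replicates 1, 2 and 3 of that group, 566 without WT saline replicate 1 and 530 without WT bleomycin replicate 1.

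**Figure D5:**
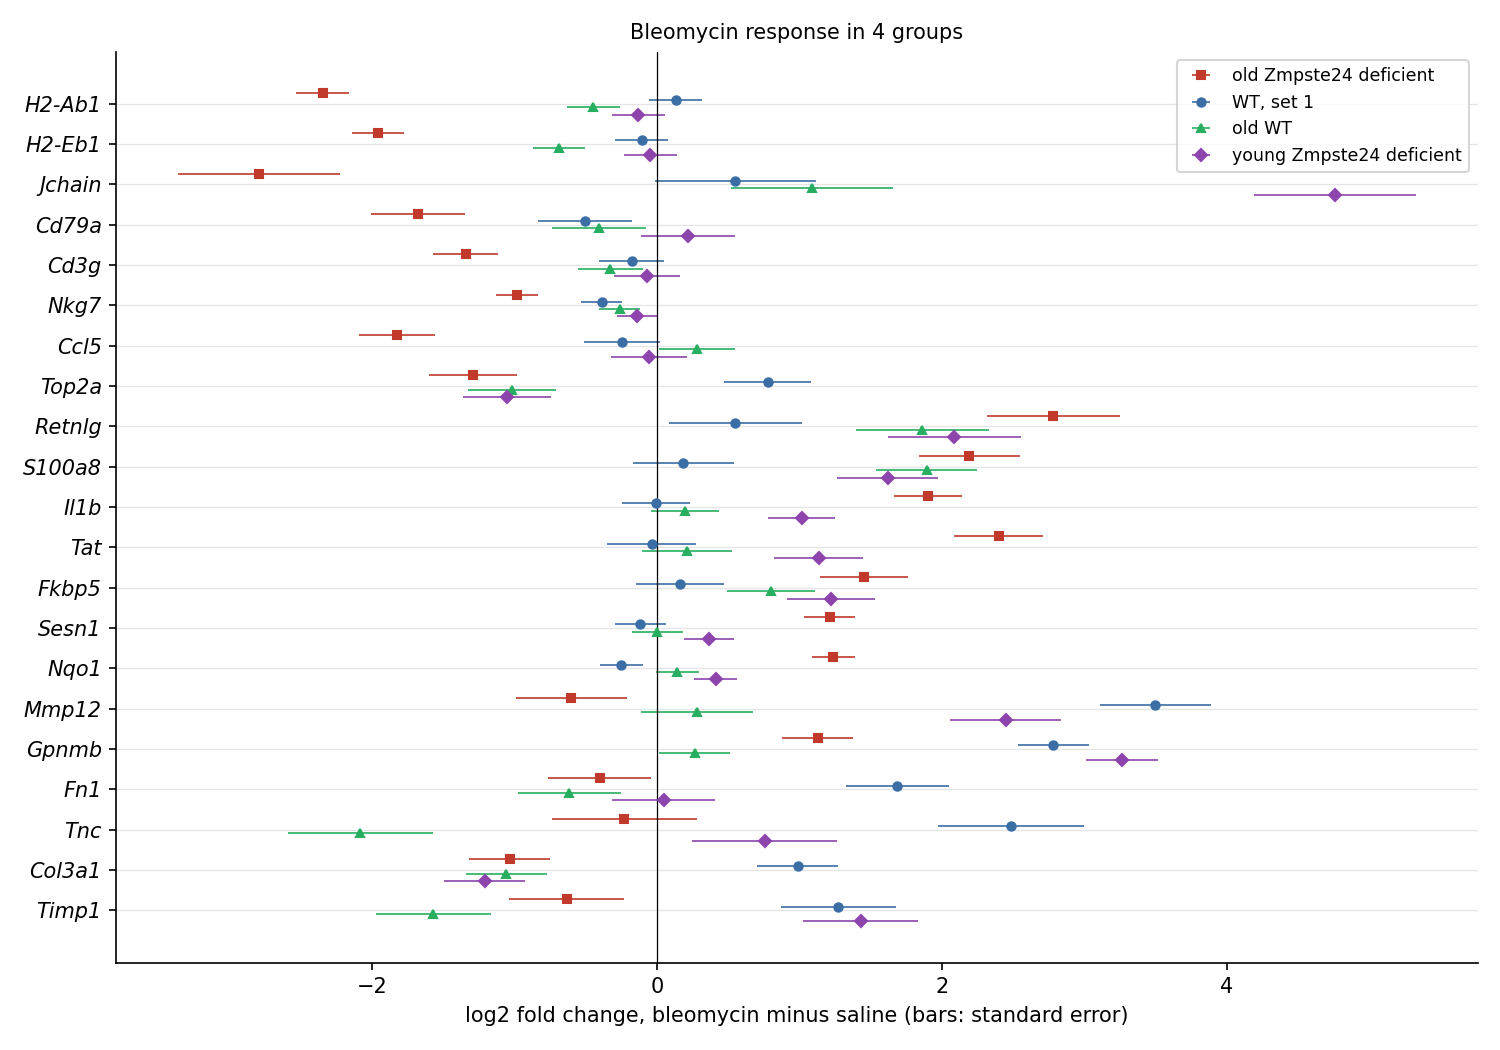
Log2 fold change (bleomycin minus saline; bars, standard error from limma) of 21 genes described in the text in the 4 groups with both treatments. H2-Ab1 falls by 2.35 in old Zmpste24 deficient lung and lies between -0.45 and 0.13 in the other 3 groups, and Mmp12 lies at -0.60, against 3.50 in WT lung of set 1, 0.28 in old WT lung and 2.45 in young Zmpste24 deficient lung.

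A macrophage gene had the lowest difference from WT lungs of set 1. Mmp12, the elastase of macrophages, stood at 7.81, 6.82 and 7.01 after saline and at 6.59, 6.42 and 6.82 after bleomycin in old Zmpste24 deficient lung (-0.60), while in WT lung of set 1 it rose by 3.50 (SE 0.39). The difference was -4.10 (SE 0.55, adjusted p = 0.000202). Of the 21 macrophage genes 10 rose in WT lungs of set 1 and 1 in old Zmpste24 deficient lungs, and 9 were called lower in the difference (11 without saline replicate 3). Gpnmb rose in both, by 2.78 and 1.13, and the difference of -1.65 (SE 0.35) passed. Matrix genes were lower in this difference too. Fn1 rose by 1.68 in WT lungs of set 1 (difference -2.09, SE 0.51, adjusted p = 0.0188), Tnc by 2.48 (difference -2.71, SE 0.72, adjusted p = 0.0304), and Col3a1 had 0.99, no call, there (difference -2.02, SE 0.40, adjusted p = 0.00477). In this difference 6 of 25 collagen genes, 7 of 35 matrix glycoprotein genes and 15 of 25 cell cycle genes were lower, and 7, 11 and 14 without saline replicate 3, beside 1.75% of all genes. The other 2 differences did not show this: 0 genes of these 3 lists were lower against old WT lungs or against young Zmpste24 deficient lungs. Without saline replicate 3, 2 and 1 matrix glycoprotein genes were lower there, and 0 collagen and 0 cell cycle genes. Collagen genes fell in 4 of 25 cases in old WT lungs and in 5 of 25 in young Zmpste24 deficient lungs. Col3a1 had -1.06, no call, and -1.21, a call, in these groups, and its differences of 0.02 (SE 0.40) and 0.17 (SE 0.40) did not pass. The old WT saline lungs lay high to begin with. Mean Tnc was 9.60 there, against 6.32 in WT saline lungs of set 1, and it fell by 2.08, a call. Col1a1 fell there by 1.60, a call, while Fn1 (-0.62) did not pass. In young Zmpste24 deficient saline lungs of set 2 the collagen list also lay high. It stood at 7.77 to 7.94 there, against 7.07 to 7.21 in old Zmpste24 deficient saline lungs. Of these young saline arrays, replicates 2 and 3 held Zmpste24 at 7.60 and 7.93, near the WT level. The absence of lower calls against old WT or young Zmpste24 deficient lungs thus does not show an equal response of matrix genes. Why these controls lay high was not tested.
H2-Ab1 had 0.13 in WT lungs of set 1, and the difference of -2.48 (SE 0.26, adjusted p = 5.87e-06) passed, as it did for 8 of 17 antigen presentation genes, 8 also without saline replicate 3. On the higher side were Hamp (3.77), which fell by 1.85 in WT lungs of set 1, Sult1d1 (3.57), Stfa2l1 (2.96) and Stfa1 (2.52), and on the lower side, next to Mmp12, the antibody genes Ighg3, Igkv4-91 and Jchain (-3.91, -3.82 and -3.34). Of the 20 glucocorticoid and fasting genes 7 were higher and 0 lower in the difference (6 and 0 without the array), Tat among them (2.43, SE 0.44, adjusted p = 0.00215). In WT lungs of set 1, Xist stood at 10.52 and 10.33 in bleomycin replicates 2 and 3 and between 4.14 and 4.80 in the other 4 arrays, and the part of this imbalance was not tested.

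Against old WT lungs, 309 genes were called (1.39%), 185 higher (0.834%) and 124 lower (0.559%). Centring each array on its median made these 202 and 59, and leaving out saline replicate 3 made them 157 and 257. The count was 1122 and 829 without old Zmpste24 deficient saline replicates 1 and 2, and 200, 135 and 104 without bleomycin replicates 1, 2 and 3 of that group. It was 129, 129 and 189 without old WT saline replicates 1, 2 and 3, and 109 and 199 without old WT bleomycin replicates 2 and 3. Genotype, age and array set all differ between the groups and cannot be told apart. The neutrophil genes rose in both, 8 of 14 in old WT and 10 of 14 in old Zmpste24 deficient lungs, and 1 was called in the difference, 1 also without saline replicate 3. Interferon-induced genes fell in 11 of 25 cases in each. The macrophage list lay higher in old WT lungs, at 9.38 to 9.45 after saline and 8.97 to 9.10 after bleomycin, and 0 of its 21 genes rose and 2 fell there. In the difference 2 were higher and 0 lower, with and without saline replicate 3, and Mmp12 (-0.88, SE 0.55, adjusted p = 0.433) did not pass. Antigen presentation genes had 0 calls in old WT lungs, and 4 of 17 were lower in the difference with and without saline replicate 3, H2-Ab1 by 1.90 (fold change -1.90, SE 0.26, adjusted p = 0.00031). The highest differences were those of Bpifa1 (3.11), Sprr1a, a cornified envelope protein of injured epithelium (3.11), Dcn (2.33) and Gm3893 (2.26), and the lowest were those of the antibody genes Igkv6-23, Ighg3, Igkj1 and Jchain (-5.77, -5.10, -4.75 and -3.88). For Sprr1a the difference arose mostly on the WT side, where it fell by 2.00, against 1.11, no call, in old Zmpste24 deficient lungs. Tat, Sesn1 and Nqo1 were higher by 2.19, 1.21 and 1.09.

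Against young Zmpste24 deficient lungs, which share the genotype, 377 genes were called (1.7%), 162 higher (0.73%) and 215 lower (0.969%), and 154 and 297 without saline replicate 3. The count was 640 without old saline replicate 2, and 237 and 220 without old bleomycin replicates 1 and 2. It was 228 without young saline replicate 1, and 239 and 190 without young bleomycin replicates 1 and 2. Antibody genes gave the lowest values. Jchain rose by 4.76 in young lungs and fell by 2.79 in old ones, a difference of -7.55 (SE 0.80, adjusted p = 6.08e-06). Igkj1, Igkv9-120 and Igkv6-23 followed at -7.02, -6.88 and -5.63. The young saline lungs lay low to begin with: the B and plasma cell list ran from 6.38 to 6.65 there and from 6.89 to 7.24 after bleomycin, whereas it ran from 7.38 to 7.51 and then from 6.39 to 6.62 in old lungs. Antigen presentation was low in young saline lungs too, at 8.06 to 8.22, against 8.84 to 8.90 in old saline lungs. The T and NK cell list ran from 6.32 to 6.425, against 6.89 to 7.06 in old saline lungs. The macrophage list overlapped, at 7.52 to 7.71 in young and 7.57 to 8.06 in old saline lungs. Of 17 antigen presentation genes 8 were lower in the difference, of 19 T and NK cell genes 7, and of 21 macrophage genes 9, while 14 macrophage genes rose in young lungs. Without old saline replicate 3 these differences counted 9, 7 and 9 lower genes. Glucocorticoid and fasting genes rose in both (9 of 20 in young lungs), and 0 were called in the difference, with and without that array. The highest values, of Krt4 (6.77), Car3 (4.81), Krt13 (4.59) and Acta1 (4.27), are those of squamous epithelium and skeletal muscle. They fell by 4.22 to 6.49 in young lungs and did not pass in old ones, and the 3 young saline arrays of set 2 held these tissues' lists at means of 7.38 to 7.44 for squamous epithelium and 7.49 to 7.57 for skeletal muscle, against 5.18 to 5.46 and 5.56 to 5.82 in the 6 old arrays. Of these young saline arrays, replicates 2 and 3 also held Zmpste24 at 7.60 and 7.93, near the WT level, so this comparison rests on controls that go against their label. Xist and Eif2s3y were both raised in young bleomycin replicate 1 (9.18 and 7.76) and young saline replicate 2 (9.64 and 5.66). Xist was also high in young saline replicate 3 (10.08) and young bleomycin replicate 3 (10.19). It was low in young saline replicate 1 (4.18) and young bleomycin replicate 2 (4.63). The part of this imbalance was not tested.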

How the data were processed

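Lung RNA of 30 mice, 3 in each of 10 groups, was measured on Affymetrix Gene 2.0 ST mouse arrays. The authors deposited log2 values for 41345 probe sets; their normalization is not stated in the sources read, and the submitters' processing notes name limma without a version. The values were used as deposited. Of the probe sets, 23521 name 1 gene, 1820 several and 16004 none, by the platform annotation, and only the first kind was named; where a gene had several probe sets (1082 genes), the 1 with the highest mean was kept. This gave 22180 genes, of which 21994 had a RefSeq entry. Group means were fitted over all 30 arrays with limma (R 4.3.3, limma 3.58.1; 20 residual degrees of freedom), since 3 arrays a group estimate a spread poorly, and p-values were adjusted by Benjamini-Hochberg over all 22180 genes, with a call at 0.05. SE is limma's moderated standard error. The responses and their differences are contrasts of that fit, which was tested on simulated data. Arrays have no depth, so their number limits the precision. Nothing states that animals were housed or treated separately, so p-values measure the spread between these samples.

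The members, gene lists and tests were chosen with earlier results of these data known. Genes were named by rule: those the paper names; the 12 highest and 12 lowest called fold changes without overlap; up to 4 called genes of smallest p per list; and the 4 highest and 4 lowest called genes per difference. Other members named to account for a list were chosen after their values were seen. Promoter windows and mature microRNAs came from RefSeq tables (GRCm38.p6), with motifs searched on both strands. Alternatives were quantile normalization, centring, array weights, a trended prior, a filter on dim genes, mean probe sets, smaller sets of arrays, a stricter threshold, a replicate block and leaving out each array. Drawing used Python 3.11.15, pandas 2.3.3, numpy 2.4.6 and matplotlib 3.10.9.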

Additional observations from a re-analysis of the deposited data

Results flagged for a closer look

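The bleomycin response of old Zmpste24 deficient lung differed from that of another group by limma's test of the difference for 969 genes against WT lung of set 1, 309 against old WT lung and 377 against young Zmpste24 deficient lung. Against WT lung of set 1 the named genes were Mmp12 (-4.10), Ighg3 (-3.91), Igkv4-91 (-3.82) and Jchain (-3.34) on the lower side and Hamp (3.77), Sult1d1 (3.57), Stfa2l1 (2.96) and Stfa1 (2.52) on the higher side. Of these, Ighg3 was not called without saline replicate 3.

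Against old WT lung they were Igkv6-23 (-5.77), Ighg3 (-5.10), Igkj1 (-4.75) and Jchain (-3.88), and Bpifa1 (3.11), Sprr1a (3.11), Dcn (2.33) and Gm3893 (2.26). Against young Zmpste24 deficient lung they were Jchain (-7.55), Igkj1 (-7.02), Igkv9-120 (-6.88) and Igkv6-23 (-5.63), and Krt4 (6.77), Car3 (4.81), Krt13 (4.59) and Acta1 (4.27).

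Among 17824 probe sets that name no gene or several genes, which the comparisons above leave out, 529 were called in old Zmpste24 deficient lung (2.97%), 312 higher and 217 lower, and 348 without saline replicate 3.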

How the results depend on the processing

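No named gene reversed its called direction in the alternatives run for it, but the balance of higher and lower calls did turn. Without saline replicate 3 the response went from 1623 higher and 727 lower to 676 and 895, the difference from WT lung of set 1 from 581 and 388 to 470 and 733, and that from old WT lung from 185 and 124 to 157 and 257. Array weights made the difference from WT lung of set 1 421 and 465 and that from old WT lung 195 and 210, and the replicate block made the difference from old WT lung 10 and 20. The difference from young Zmpste24 deficient lung, 162 and 215, became 386 and 254 without old saline replicate 2, 157 and 156 with centred arrays and 94 and 81 with the replicate block. The 2350 calls of the response became 1070 with array weights (557 higher, 513 lower), 123 with only the groups compared, 857 with only the 15 arrays of set 1 and 928 at an adjusted p under 0.01, and leaving out 1 array gave 1185 to 3746. Quantile normalization without saline replicate 3, added after seeing the data, gave 1779 (721 higher, 1058 lower). The 969 calls against WT lung of set 1 became 626 with centred arrays, 155 with only the groups compared and 248 at 0.01, and 530 to 1588 with 1 array left out. The 309 calls against old WT lung became 66 with only the groups compared and 69 at 0.01, and 104 to 1122 with 1 array left out. The 377 calls against young Zmpste24 deficient lung became 696 with array weights and 152 at 0.01, and 190 to 640 with 1 array left out. The cause was not tested, except that fits of fewer arrays have fewer degrees of freedom.

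Same-numbered arrays did not deviate together (correlations of -0.07, -0.08 and -0.17), so the replicate numbers do not pair the mice. A fit with the replicate number as a block called 159 genes for the response, 88, 30 and 175 for the differences from WT lung of set 1, old WT lung and young Zmpste24 deficient lung.

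Of 148 called named genes 107 lost the call with only the groups compared, 92 with the replicate block, 48 with array weights, 17 with centred arrays, 9 with quantile normalization and 19 to 44 with 1 of the 6 arrays left out, 36 of them for saline replicate 3. In all, 39 lost it under none of the alternatives run for named genes. Those alternatives did not include the 15 arrays of set 1, the fit without young saline arrays or the stricter threshold, and 152 of the 174 named genes passed the filter on dim genes. The median of all genes moved by at most 0.02 on the log2 scale under these scalings.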
